A study of Mus musculus with 4 samples.

Results

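The genes described here encode 8 surface proteins through which a tumour cell meets immune cells: the adhesion molecules Vcam1 and Icam1, the inhibitory ligands Cd274 (PD-L1), Pvr (CD155) and Cd47, and the co-stimulatory or activation molecules Cd80, Cd83 and Cd40. They were chosen by symbol from the table of gene values, in which 8 of 50600 rows carry those names. Of the 8, 4 (Vcam1, Cd47, Pvr and Cd274) were expressed above the filter used for testing, and 4 (Cd83, Icam1, Cd40 and Cd80) lay under it. RNA was sequenced from Py8119, a mouse mammary tumour line of C57BL/6 origin that is labelled mesenchymal-like and was grown without treatment. A population with the genotype control (titled hygro) was compared with a population with the genotype Mtss1 overexpression, with 2 libraries each, called control 1 and 2 and overexpression 1 and 2 below. The labels give neither the vector or promoter that carries Mtss1 nor whether a population is a pool or a single clone. Nor do they name separate cultures for the libraries within a group. The p-values therefore measure the spread between the libraries sequenced, and that spread may be technical.

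Vcam1 and Icam1 are immunoglobulin-family adhesion receptors, best known on activated endothelium, where they hold leukocytes through the integrins VLA-4 and LFA-1. Cd274 binds PD-1 on T cells and restrains them, Pvr binds the inhibitory receptor TIGIT and the activating receptor DNAM-1 on T and NK cells, and Cd47 binds SIRP-alpha on macrophages, the signal that spares a cell from phagocytosis. Cd80 is a ligand of CD28 and CTLA-4, Cd40 is a receptor of the tumour necrosis factor family that activates NF-kB, and Cd83 is a surface marker of mature dendritic cells. Several of the 8, Vcam1, Icam1, Cd274, Cd80, Cd83 and Cd40 among them, are textbook NF-kB targets, and the series title concerns Mtss1 and the degradation of the NF-kB subunit p65.

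Values are in CPM, reads per 1000000 with a further scaling between libraries, and recovered totals ran from 15594209 to 22081639 reads per library. A floor of 3 reads corresponded to 0.138 to 0.189 CPM. Mtss1 itself stood at 118 and 119 CPM in the overexpression libraries, against 54.5 and 50.5 CPM in the control. All 5 markers of mesenchymal-like cells passed the filter, with summed levels of 14909.1 to 15022.7 CPM in the control and 12628.5 to 12795.9 CPM with overexpression. Within that sum mean Fn1 fell from 9942 to 8102 CPM, S100a4 from 547 to 192 CPM and Cdh2 from 260 to 222 CPM. Vim did not pass the test (4156 and 4127 CPM), and Zeb1 went against the sum, from 61.4 to 69.0 CPM. Of 6 epithelial markers, Krt8 and Krt18 passed it and Epcam and Krt5 were at 0 in all 4 libraries, with summed levels of 849 to 893 CPM in the control and 601 to 603 CPM with overexpression. Of 6 fibroblast markers 3 passed, Pdgfra the most abundant, with summed levels of 202 to 208 and 136 to 139 CPM. Col1a1, also among those 3, went against the sum and rose from 1.26 to 2.82 CPM. Of 14 leukocyte markers 0 passed the filter and 8 were at 0 in all libraries. Their summed level was 0.461 to 0.513 CPM in the control and 1.04 to 1.11 CPM with overexpression. None of 6 endothelial markers passed, with summed levels of 0.460 to 0.490 and 1.19 to 1.20 CPM. Cd3e, Cd8a and Itgam were among the leukocyte markers at 0. The epithelial, fibroblast and mesenchymal-like sums were lower where Vcam1, Cd274 and Cd47 were lower. The leukocyte and endothelial sums were higher there. The part of these cell types in the differences was not tested.

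Of the 4 genes tested, Cd274, Vcam1 and Cd47 fell with Mtss1 overexpression and Pvr did not pass the test. In the same comparison 66.1% of all 12510 genes tested passed the threshold (limma adjusted p under 0.05), with 34.2% lower and 31.9% higher. The median log2 fold change was -0.51 over the 4 genes and -0.01 over all genes tested. The control and overexpression libraries did not overlap for any of the 4, which also held for 81.6% of all genes tested; for 41.9% the overexpression libraries were the lower ones, as for 3 of the 4. Log2 fold changes are on the scale of log2(CPM + 1). Each gene had 2 residual degrees of freedom, and an exact permutation test of 2 libraries against 2 cannot give a p under 0.333. In bulk RNA, fewer cells expressing a gene and less of its RNA per cell cannot be told apart.

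**Figure D1:**
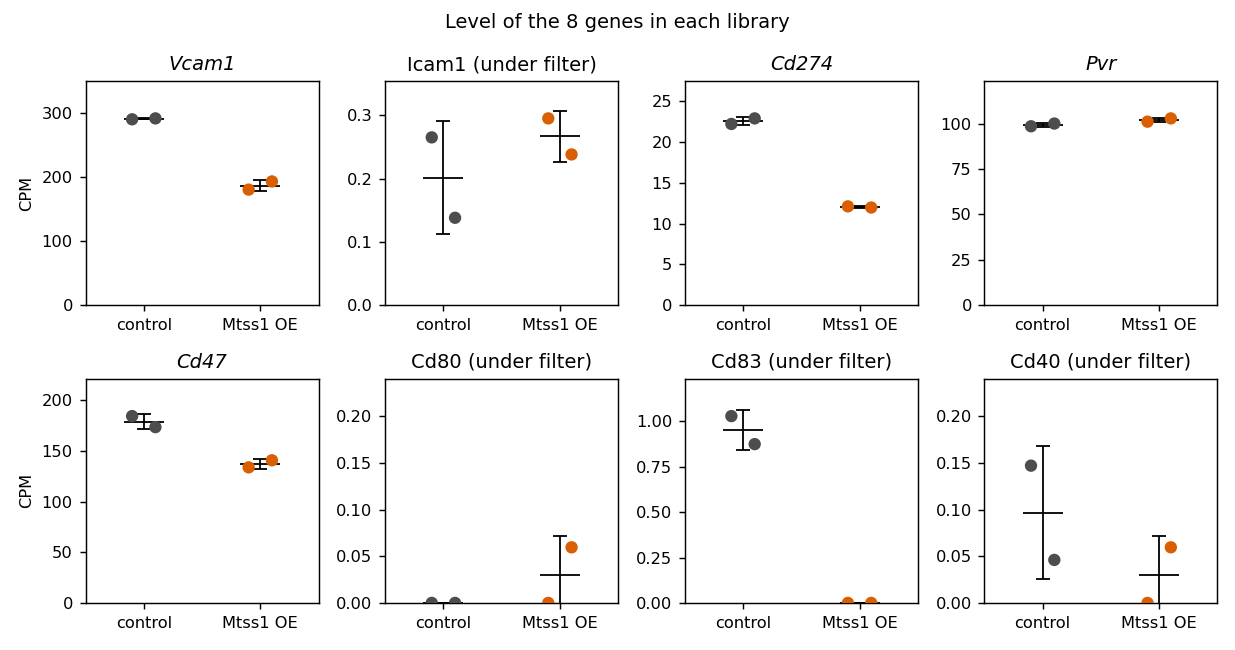
CPM of each gene in each library (grey, control; orange, Mtss1 overexpression, OE), with a bar for the mean and error bars of 1 SD (n = 2); each panel has its own axis from 0. Vcam1, Cd274 and Cd47 lie lower in both overexpression libraries, Pvr lies between 98.5 and 103 CPM throughout, and the other 4 genes stay at or under 1.03 CPM.

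The adhesion receptors were unlike each other in level. Vcam1 (ENSMUSG00000027962, minus strand of chromosome 3, 116109949 to 116129688 in mm10) stood at 290 CPM in control 1, 292 CPM in control 2, 180 CPM in overexpression 1 and 193 CPM in overexpression 2. Both overexpression libraries were lower than both control libraries, by much more than the spread within either group. The mean went from 291 ± 0.989 to 187 ± 9.04 CPM (SD, n = 2), to 64.2% of the control, and the log2 fold change was -0.64 ± 0.04 (SE) with a limma adjusted p of 2.2e-12. Of all genes tested, 9.66% had a lower log2 fold change. The 6 markers of endothelium, where Vcam1 is best known, summed to 0.460 to 0.490 CPM in the control and 1.19 to 1.20 CPM with overexpression. The part of endothelial cells in the Vcam1 level was not tested.

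Icam1 (ENSMUSG00000037405, plus strand of chromosome 9, 21015985 to 21028817) was close to the detection floor. Control 1 and 2 held 5.41 and 3 reads of it (0.265 and 0.138 CPM), and overexpression 1 and 2 held 4.68 and 4 reads (0.295 and 0.238 CPM). The groups overlapped, and no difference was detectable at this depth. An antisense gene, Gm47079, shares 511 exon bases with Icam1 and averaged 0.476 CPM, so even these few reads could belong to either gene where counting ignored strand. The next expressed gene, 3.26 kb further along the chromosome, is its relative Icam5, an adhesion molecule known from neurons. Icam5 rose from 3.66 ± 0.121 to 7.68 ± 0.268 CPM (SD, n = 2), or by 0.90 ± 0.14 (SE) on the log2 scale, with a limma adjusted p of 8.1e-06.

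The Icam1 start region is shown because it holds matches to a variant NF-kB element and a STAT element while the gene was barely read. It is RefSeq sequence (GRCm38.p6, chr9:21015690-21015939, plus strand), 5′ to 3′, ending at the base before the RefSeq start; capitals mark every match to a motif searched.
Icam1: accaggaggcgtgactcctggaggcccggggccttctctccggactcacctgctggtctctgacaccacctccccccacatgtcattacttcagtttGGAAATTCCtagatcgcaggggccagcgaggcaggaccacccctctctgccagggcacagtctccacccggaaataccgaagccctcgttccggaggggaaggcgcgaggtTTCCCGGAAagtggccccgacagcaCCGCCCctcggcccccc
From left to right the capitals are GGAAATTCC at -153 to -145, the variant kappa B element known from the human ICAM1 promoter, TTCCCGGAA at -42 to -34, a match to the STAT-binding pattern TTCNNNGAA, and a GC box on the opposite strand. Over 32536 distinct windows of 250 bases before RefSeq starts, GGAAATTCC on either strand was in 0.289%, TTCNNNGAA in 7.04% and the GC box GGGCGG in 33.0%. GGAAATTCC was added to the search after the sequence had been seen. The general NF-kB pattern searched, the kappa B decamer GGGRNNYYCC, had no match in this window. A match is a description of letters, and binding was not measured.

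Among the inhibitory ligands, Cd274 changed most. Cd274 (ENSMUSG00000016496, plus strand of chromosome 19, 29367455 to 29388095) stood at 22.2 CPM in control 1, 22.9 CPM in control 2, 12.1 CPM in overexpression 1 and 12.0 CPM in overexpression 2. The libraries of a group lay close together, and the groups were far apart. The mean went from 22.5 ± 0.482 to 12.0 ± 0.0985 CPM (SD, n = 2), to 53.4% of the control. The log2 fold change was -0.85 ± 0.10 (SE), with a limma adjusted p of 6.3e-08, and 5.50% of genes tested had a lower one. Its relative Pdcd1lg2 (PD-L2), the other ligand of PD-1, had 1 library above 0, at 0.0460 CPM.

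Cd274 begins close to the oppositely directed gene Plgrkt, which encodes a plasminogen receptor. In GENCODE M21 the starts are 0.065 kb apart and no exon bases are shared. Plgrkt stood at 42.9 and 43.4 CPM in control cells, against 30.2 CPM in overexpression 1 and 36.5 CPM in overexpression 2. It fell to 77.3% of the control (log2 fold change -0.37 ± 0.08 (SE), limma adjusted p = 2.2e-04). Its fold change was -0.23 without overexpression 1 and -0.50 without overexpression 2, so its size depends on the library. Ric1, the nearest expressed gene on the other side at 134 kb, rose by 0.20 ± 0.05 on the log2 scale. An antisense transcript, AC119228.1, shares 511 exon bases with Cd274 and was not analysed here.

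The stretch that the starts of Cd274 and Plgrkt share is shown here, with the start region of Cd47, the other inhibitory ligand that fell and has a promoter entry. Both are RefSeq sequence (GRCm38.p6, plus strand), 5′ to 3′, cut to bases outside GENCODE exons (chr19:29367391-29367437 and chr16:49855404-49855632); capitals mark GC boxes (GGGCGG).
Cd274: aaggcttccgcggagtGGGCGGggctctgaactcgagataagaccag
Cd47: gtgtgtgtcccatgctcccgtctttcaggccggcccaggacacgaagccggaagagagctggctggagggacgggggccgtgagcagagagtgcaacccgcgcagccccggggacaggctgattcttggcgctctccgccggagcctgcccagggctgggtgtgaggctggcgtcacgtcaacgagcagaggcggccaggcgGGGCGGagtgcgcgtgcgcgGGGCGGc
The Cd274 stretch of 47 bases holds 1 GC box and that of Cd47, 229 bases long, holds 2. The Cd47 stretch precedes a RefSeq start that lies inside the GENCODE span of the gene (49800533 to 49915010), not at the first base of that span. A second Cd47 entry, with a window from 49855411, held the same 2 GC boxes. The windows of 250 bases before the RefSeq starts of Cd274 and Cd47 held no match to the kappa B decamer (in 7.28% of all windows), to TTCNNNGAA or to GGAAATTCC, on either strand. The interferon-response core GAAANNGAA (in 7.15% of windows) matched once, in the Cd274 window on the opposite strand at -76 to -68 (TTCGGTTTC), within the first exon of Plgrkt. This core was shortened by 1 base after a longer form had given no match in any member's window. Elements further away were not searched. Of the 8 genes, 4 (Icam1, Cd274, Cd47 and Cd80) had an entry; Vcam1, Pvr, Cd83 and Cd40 had none.

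Cd47 (ENSMUSG00000055447, plus strand of chromosome 16, 49800533 to 49915010) stood at 184 CPM in control 1, 173 CPM in control 2, 134 CPM in overexpression 1 and 141 CPM in overexpression 2. The gap between the groups was wider than the spread within either. The mean went from 179 ± 7.69 to 137 ± 4.95 CPM (SD, n = 2), to 76.7% of the control, and the log2 fold change was -0.38 ± 0.04 (SE) with a limma adjusted p of 5.9e-08. A change of at least this size in either direction was common: 38.1% of genes tested had a larger one. The expressed genes on both sides of Cd47 went the other way, Ift57 by 0.27 ± 0.08 and Bbx by 0.12 ± 0.05 on the log2 scale.

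Pvr (ENSMUSG00000040511, minus strand of chromosome 7, 19903578 to 19921160) stood at 98.5 CPM in control 1, 100.004 CPM in control 2, 101 CPM in overexpression 1 and 103 CPM in overexpression 2. Both overexpression libraries were slightly above both control libraries. The log2 fold change was 0.04 ± 0.04 (SE), with a 95% interval of -0.05 to 0.13 and a limma adjusted p of 0.46. The interval leaves out a fall of the size seen for Cd47, whose own interval ran from -0.47 to -0.29. Intervals were -0.72 to -0.56 for Vcam1 and -1.05 to -0.65 for Cd274. Those of Vcam1 and Cd274 overlapped, and differences in fold change between genes were not tested.

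**Figure D2:**
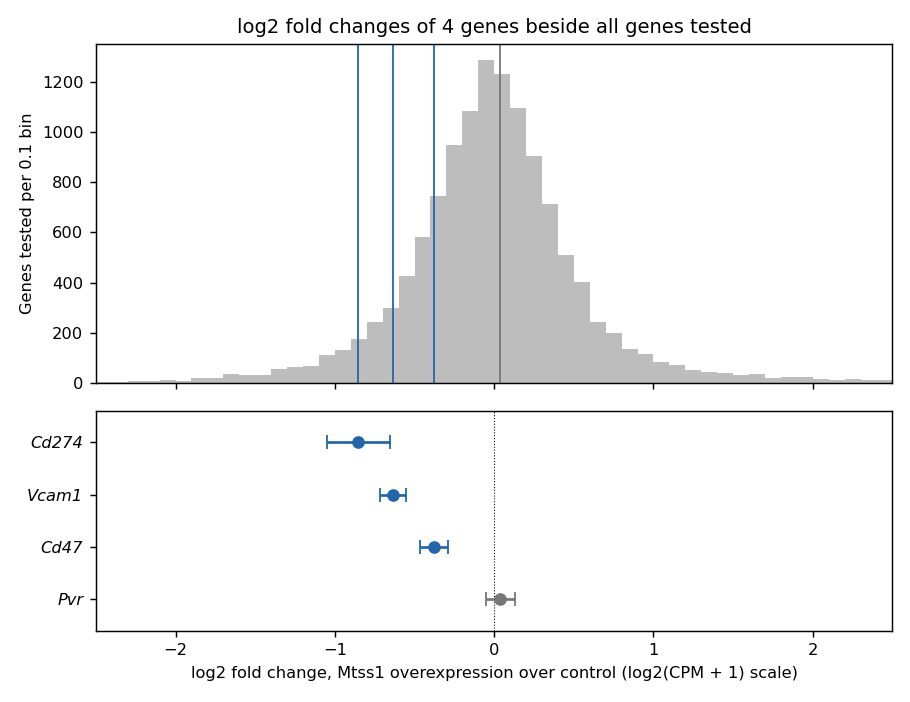
Top, number of genes tested per 0.1 bin of log2 fold change between -2.5 and 2.5 (12510 genes tested in all), with vertical lines at the 4 genes; bottom, each gene's log2 fold change (point) and 95% interval (bar), blue where lower and grey where not past the test. Cd274, Vcam1 and Cd47 lie left of 0, at -0.85, -0.64 and -0.38, inside the spread of all genes, and the interval of Pvr spans 0.

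The co-stimulatory and activation molecules were scarcely expressed. Cd83 (ENSMUSG00000015396, chromosome 13, 43784775 to 43803132) had 21 and 19 reads in the control libraries (1.03 and 0.874 CPM) and was at 0 in both overexpression libraries. The groups did not overlap. Against a floor of 3 reads per overexpression library, the control mean of 0.952 ± 0.109 CPM (SD, n = 2) corresponds to an at least 5.18-fold lower level. Cd83 reached 1 CPM in only 1 library and so had no test in the main comparison. Cd40 (ENSMUSG00000017652, chromosome 2, 165055627 to 165072948) had 3 and 1 reads in the control libraries and 0 and 1 with overexpression. Cd80 (ENSMUSG00000075122, chromosome 16, 38455561 to 38496335) had 1 read in all, in overexpression 2. Both stayed at or under the floor of 3 reads, and no fold is given for them.

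Levels of different genes were compared per length, as CPM per kb of exon in GENCODE M21. In the control, Vcam1 (32.7 and 32.9 CPM per kb) was highest, followed by Cd47 (29.4 and 27.6), Pvr (16.1 and 16.3) and Cd274 (6.13 and 6.31). Each stood clear of its neighbour in both control libraries. With overexpression, Cd47 (21.3 and 22.4 CPM per kb) and Vcam1 (20.3 and 21.8) overlapped, with Pvr (16.5 and 16.8) and Cd274 (3.34 and 3.30) below them. In the control, 87.3% of genes tested had a lower level per length than Vcam1, 85.1% than Cd47, 73.1% than Pvr and 46.1% than Cd274. Cd83 followed at 0.400 and 0.340 CPM per kb, and Icam1, Cd40 and Cd80 were at 0.0608 or lower in the control libraries.

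**Figure D3:**
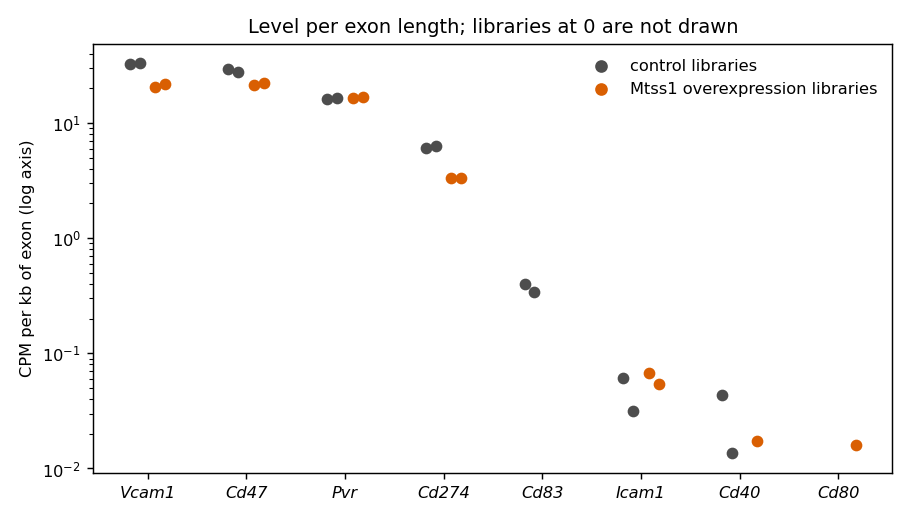
CPM per kb of exon on a log axis for each gene in each library (grey, control; orange, Mtss1 overexpression), ordered by the control mean; libraries at 0 are not drawn. The 4 genes on the left lie at 3.30 CPM per kb or higher, and Cd83, Icam1, Cd40 and Cd80 at 0.400 or lower.

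Other checkpoint and co-stimulatory ligands leaned the other way. Of 30 such genes with a row, 15 were tested, of which 9 rose, 2 fell and 4 did not pass the test, with a median log2 fold change of 0.22. Of these, 73.3% were called, beside 66.1% of all genes. Cd276 (B7-H3), a B7-family relative of Cd274, rose from 0.904 ± 0.107 to 9.14 ± 0.543 CPM (SD, n = 2; log2 fold change 2.41 ± 0.16 (SE), limma adjusted p = 8.7e-12). The butyrophilin gene Btn2a2, also a B7 relative, rose from 2.07 ± 0.915 to 13.9 ± 1.43 CPM (2.31 ± 0.17). Ulbp1, which encodes a ligand of the activating NK-cell receptor NKG2D, rose from 10.4 ± 0.0213 to 32.7 ± 1.88 CPM (1.57 ± 0.09). Vsir (VISTA), named after its value was seen as are the next 4 genes, rose from 3.04 to 8.81 CPM (1.28 ± 0.14). The nectins are relatives of Pvr: Nectin1 rose by 1.09 ± 0.16 and Nectin2 by 0.21 ± 0.05 on the log2 scale. The genes that fell were Tnfsf9, the 4-1BB ligand (10.5 to 6.21 CPM, -0.67 ± 0.13), and H2-T23, the Qa-1 ligand of NKG2A (139 to 109 CPM, -0.35 ± 0.05). Among the 15 genes under the filter, Cd86, which like Cd80 is a ligand of CD28, was at 0 in every library. Folds of low genes depend on the pseudocount: with 5 in place of 1, Cd276 stood at 1.26 and with 0.1 at 3.20.

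Of 16 tested adhesion molecules of leukocytes and endothelium, 10 rose, 4 fell and 2 did not pass, with a median log2 fold change of 0.24. That is 87.5% called, beside 66.1% of all genes tested. Mcam, an immunoglobulin-family adhesion gene, rose from 0.721 ± 0.435 to 13.4 ± 0.715 CPM (SD, n = 2; 3.08 ± 0.17 (SE), limma adjusted p = 4.6e-13). Jam3, a junctional adhesion molecule gene, rose from 0.526 ± 0.157 to 6.40 ± 0.667 CPM (2.28 ± 0.17). Selp, the P-selectin gene, rose from 11.9 ± 0.257 to 38.7 ± 2.33 CPM (1.62 ± 0.09). Cadm1, another immunoglobulin-family adhesion gene and one picked out afterwards, went down from 312 ± 2.00 to 160 ± 5.97 CPM (-0.96 ± 0.04). Selp is known from endothelium and platelets and Mcam also from endothelium. The summed endothelial markers given above moved with them, at 1.20 CPM or less. Within that sum mean Cdh5 went from 0.284 to 0.709 CPM and Pecam1 from 0.0245 to 0.270 CPM. Kdr and Emcn were also higher, and Tek (0.0980 to 0 CPM) and Tie1 (0.0460 to 0.0315 CPM) were lower. The part of endothelial cells in the changes of Selp and Mcam was not tested.

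**Figure D4:**
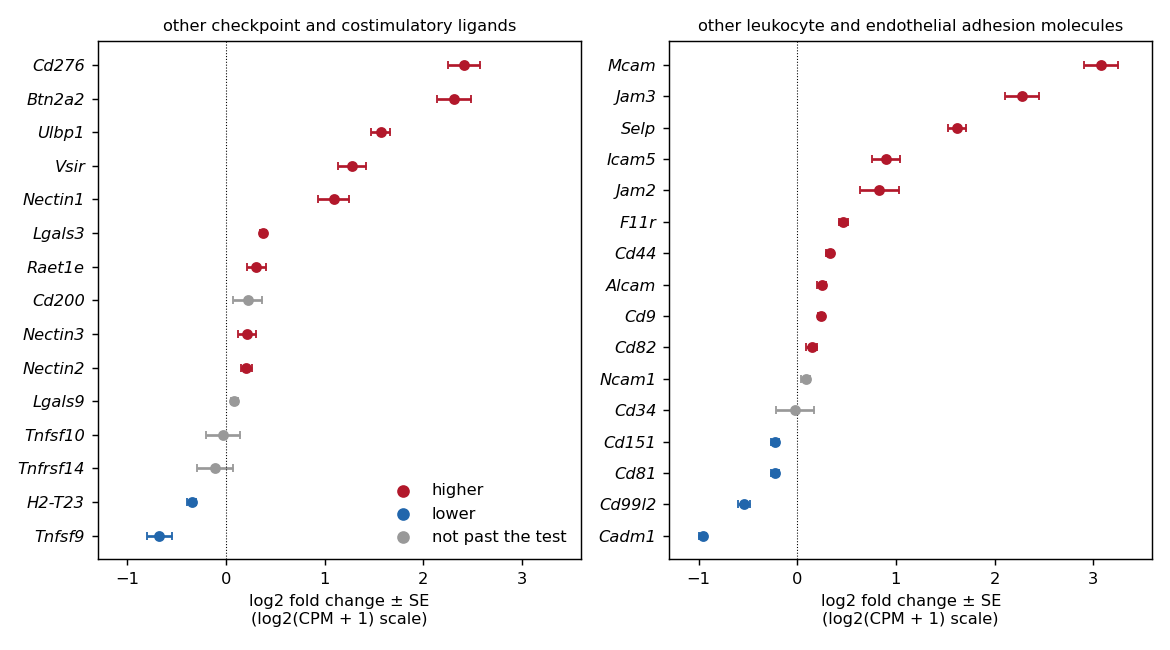
Log2 fold change (point) with its SE (bar) for each tested gene of the lists of other checkpoint and co-stimulatory ligands (left, 15 genes) and of other leukocyte and endothelial adhesion molecules (right, 16 genes); red is higher, blue lower and grey not past the test. In both panels more genes were higher (9 and 10) than lower (2 and 4).

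Genes that act on the products of Cd274, Cd47 and Vcam1 were examined as well. Of 21 receptors and partners of the 8 proteins, 7 were tested; 4 rose and 3 fell, so all 7 were called, beside 66.1% of all genes. Thbs1, the gene of thrombospondin 1, which binds CD47, rose from 622 ± 6.80 to 1143 ± 1.85 CPM (0.88 ± 0.03, limma adjusted p = 2.5e-16). Itgb2, the beta chain of LFA-1, fell from 19.4 ± 2.43 to 3.52 ± 0.0737 CPM (-2.17 ± 0.13), and Spn (CD43), a sialoglycoprotein gene, from 15.4 to 9.69 CPM (-0.62 ± 0.11). Pdcd1, Ctla4, Cd96 and Cd40lg were at 0 in all libraries. Of 23 tested genes for post-translational regulators and sheddases, 6 rose, 9 fell and 8 did not pass, with a median of -0.03; the 65.2% called is close to the 66.1% of all genes. Usp22, a deubiquitinase gene, rose by 0.61 ± 0.04, Hip1r, which encodes an endocytic adaptor, by 0.69 ± 0.09, and Cmtm4, a relative of the PD-L1 stabiliser gene Cmtm6, by 0.45 ± 0.04. Cmtm6, also picked out afterwards, rose by 0.28 ± 0.06, so that both CMTM genes were higher where Cd274 RNA was lower. Adam10 (-0.31 ± 0.04) and Adam17 (-0.20 ± 0.04), genes of metalloproteases that cut surface proteins, VCAM-1 among the ADAM17 substrates, fell and were also named afterwards. Of the other metalloproteinase genes in the list, Mmp14 rose by 0.31 ± 0.04 and Mmp9 did not pass the test.

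On the signalling side, 16 genes of the interferon route to Cd274 were tested, of which 7 rose, 5 fell and 4 did not pass (median 0.09). Their members split along the route: the kinase gene Jak2 rose by 0.57 ± 0.05 and Irf1, a transcription factor gene that drives Cd274, by 0.27 ± 0.05, while Irf9 (-0.30 ± 0.05) and the receptor gene Ifngr1 (-0.32 ± 0.08) fell. Irf1, Irf9 and Ifngr1 were named after their values were seen. The feedback genes Socs3 and Socs1 went opposite ways, by 0.51 ± 0.05 and -1.03 ± 0.13. Of 19 tested CD40 adaptors and NF-kB signalling genes, 9 rose, 3 fell and 7 did not pass (median 0.07). Traf1, itself a known NF-kB target, rose by 0.56 ± 0.07, Tnfaip3 by 0.53 ± 0.06 and Traf2 by 0.48 ± 0.07 on the log2 scale. The 3 that fell, named after their values were seen, were Ikbkg (-0.29 ± 0.06), Traf3 (-0.25 ± 0.05) and the NF-kB subunit gene Nfkb1 (-0.24 ± 0.04). Rela, which encodes p65, did not pass the test: the control libraries held 92.0 and 94.6 CPM, those with overexpression 91.8 and 86.3 CPM. These values are RNA, and the level of p65 protein was not measured. These lists were called at 75.0% and 63.2%, beside 66.1% of all genes. Of 11 tested cytoplasmic partners of ICAM-1 and VCAM-1, 3 rose, 3 fell and 5 did not pass, or 54.5% called. Ezr, which links membrane proteins to actin, rose by 0.38 ± 0.04, and its relative Rdx fell by 0.25 ± 0.04. Flna, an actin crosslinker gene, fell by 0.88 ± 0.03. With library size scaling or median-of-ratios scaling 5 of the 11 were higher.

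The genes with the pattern most like each tested gene were found by the distance between centred log2(CPM + 1) values over the 4 libraries, among genes of similar level. For Vcam1 they were Rbm3 (distance 0.0156) and Papola (0.0253) out of 1758 candidates. For Cd274 they were Cdkn1a (0.0127) and Wisp1 (0.0261) out of 3296, for Cd47 Sdc2 (0.0284) and Ptp4a2 (0.0289) out of 2691, and for Pvr Socs5 (0.00658) and Sept11 (0.00797) out of 3768. With 2 groups of 2 libraries, such a likeness rests mostly on a similar fold change.

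The fold changes of the 4 tested genes moved little with the processing. Over 13 alternative settings Vcam1 ran from -0.69 to -0.59, Cd274 from -0.90 to -0.69, Cd47 from -0.42 to -0.34 and Pvr from 0.03 to 0.08 on the log2 scale, with each gene on the same side of its threshold throughout.

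**Figure D5:**
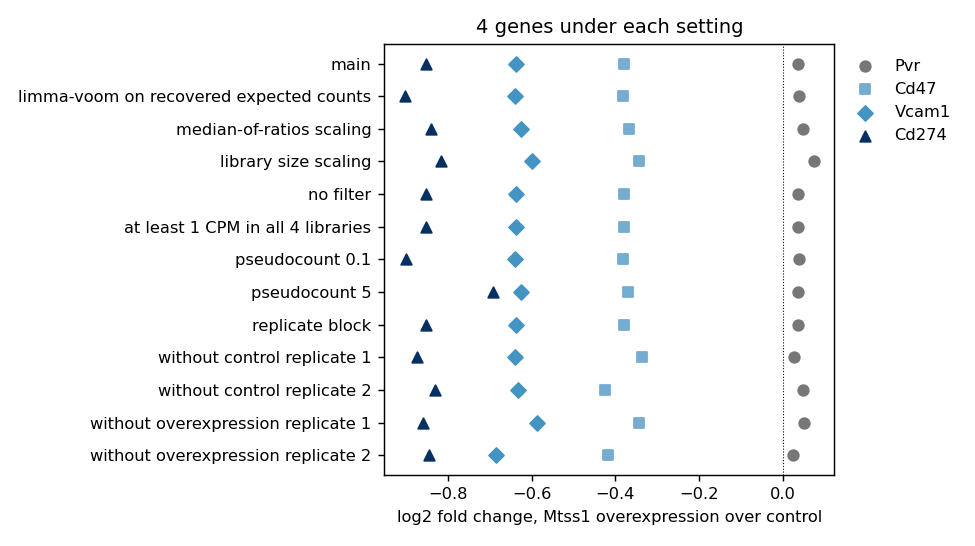
Log2 fold change of Pvr, Cd47, Vcam1 and Cd274 (symbols) in the main comparison and under 12 of the 13 alternative settings, the stricter threshold being left out because it changes no fold change. The genes keep their order in every row, from Cd274 at -0.90 to -0.69 to Pvr at 0.03 to 0.08.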

How the data were processed

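Messenger RNA levels of Py8119 cells were read from 1 table of 4 libraries. The deposited values are CPM, an assignment made from the values; FastQC 0.11.2, STAR and RSEM, with build mm10, appear in the submitters' processing notes. For the scaling between libraries, the source is not given. Values are multiples of a constant step, the CPM of 1 read; 79.6% to 80.5% of nonzero values were whole reads within 0.005 read. Recovered reads, rounded to hundredths, served only for depth, floors and alternatives.

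The test was limma 3.58.1 (R 4.3.3; lmFit, then eBayes with a trend on the mean). It ran on log2(CPM + 1) of the genes that 2 or more libraries held at 1 CPM or above, with Benjamini-Hochberg adjustment over all 12510 genes and a threshold of 0.05; the prior added 20.0 degrees of freedom. The pseudocount understates changes of low genes. Where a symbol had several rows, the highest was used. Coordinates and exon lengths are from GENCODE M21, which matched 50376 of 50600 identifiers. The fit was tested on simulated data in which known genes were changed. Alternatives were limma-voom on recovered counts, 2 other scalings, no filter, 1 CPM in all libraries, pseudocounts of 0.1 and 5, the replicate number as a block, a threshold of 0.01, and each library left out in turn.

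The members and lists were chosen with earlier results of these data known. The rule names all 8 members, up to 3 genes per list with the largest change past the threshold, and the 2 genes most like each tested member; genes outside it are marked. Some list members are not reported here. List members are described by counts, with no set test. One listed gene, Cd58, had no row. Motifs were searched on both strands of the 250 bases before RefSeq starts.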

Additional observations from a re-analysis of the deposited data

How the results depend on the processing

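All 52 values of the 4 tested members under the alternatives kept their direction and their side of the threshold. Members called lower numbered 3 in 12 of 13 settings and 4 without a filter, where Cd83 joined (log2 difference -0.96, limma adjusted p = 6.5e-04); a difference from a group at 0 depends on the pseudocount and is no bound. None was called higher in any setting. Leaving out each library gave -0.69 to -0.59 for Vcam1, -0.87 to -0.83 for Cd274, -0.42 to -0.34 for Cd47 and 0.03 to 0.05 for Pvr; the group left with a lone library is then assumed to vary like the other. Over all genes, 3317 to 4362 were higher and 3621 to 4337 lower. With the replicate number as a block, 4040 genes were higher and 4337 lower (3991 and 4282 without), Cd274 stood at -0.85, and no call on a member changed. Deviations of same-numbered libraries had a correlation of -0.02 across genes. A value near 0 does not settle whether same-numbered libraries were prepared together, since those deviations also hold counting noise. Library size scaling moved the median of all genes to 0.02. Of 682 values of 53 other named or examined genes, 664 kept direction and side of the threshold, 10 lost the call, 8 gained it and 0 turned; the cause was not tested. Nectin3 lost its call without control 1 (adjusted p = 0.064, limma), control 2 (0.14) or overexpression 2 (0.24). For Icam1, Cd40 and Cd80, with at most 5.41 reads per library, depth limits any statement on a change.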

Other observations

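Several genes of the list of receptors, known mainly from lymphocytes, were read in these tumour cells beside their ligands; they are named after their values were seen. Tigit, the inhibitory receptor for CD155, stood at 15.4 and 16.0 CPM in control cells, against 21.3 and 19.9 CPM in the overexpression libraries, and rose by 0.37 ± 0.09 (SE) on the log2 scale (limma adjusted p = 0.0014). Its activating counterpart Cd226 (DNAM-1) read at most 0.252 CPM and Cd96 was at 0 in all libraries. No other annotated gene overlaps Tigit in GENCODE M21. Ptprc, the pan-leukocyte gene, had at most 0.0980 CPM, and Cd3e, Cd8a and Ncr1 were at 0. H2-Ab1, a class II antigen gene in the same marker list, averaged 0.121 CPM in the control and 0.607 CPM with overexpression, and the B-cell receptor gene Cd79a 0.0705 and 0.217 CPM. Csf1r, in that list too, went the other way, averaging 0.247 CPM in the control and 0.156 CPM with overexpression. Ptprc likewise averaged 0.0490 and 0.0315 CPM. The summed leukocyte markers, 0.461 to 0.513 and 1.04 to 1.11 CPM, moved in the direction of Tigit, and their part in its rise was not tested.

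Integrin beta chains were read with little or no RNA of the alpha chains in the list that pair with them on leukocytes. Itgb2 (17.6 and 21.1 CPM in the control, 3.47 and 3.57 CPM with overexpression) stood beside Itgal at no more than 0.0630 CPM and Itgam and Itgax at 0. Itgb7 fell from 21.2 ± 0.00363 to 14.9 ± 0.346 CPM (SD, n = 2; log2 fold change -0.48 ± 0.09 (SE), limma adjusted p = 1.0e-04), while Itga4, its partner and that of Itgb1 in binding VCAM-1, read at most 0.238 CPM. Itgb1 itself rose from 889 to 1062 CPM (0.26 ± 0.03). Itgav, another alpha chain gene in the list, was well expressed and rose from 270 to 343 CPM (0.35 ± 0.03). Alpha chains outside the list are not covered here. Whether the reads of Tigit, Itgb2 and Itgb7 come from full-length transcripts was not tested.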
